A study of Mus musculus with 20 samples.

Results

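The tachykinin system in the developing mouse habenula was followed through 4 genes, chosen by symbol: the peptide precursors Tac1 and Tac2 and the receptors Tacr1 and Tacr3. They are 4 of 37994 genes in the developmental tables and of 36104 genes in the tables of left and right habenula. Single cells were sequenced on 20 plates of 384 wells with Cel-seq2, a plate-based method that tags each transcript with a unique molecular identifier (UMI), so that molecules rather than reads are counted. The developmental series came from mice of the Brn3a-tauLacZ line (Brn3a is an older name of Pou4f1, a transcription factor of habenular neurons), with 1 plate at E12 and 2 plates at each other stage: embryonic E11, E13, E15, E18, then postnatal P4, P7, and finally adult. Left, right and both-side habenula at E18 came from C57BL/6 mice, with 2, 2 and 1 plates. All plates are labelled habenula with no treatment; the genotype at the reporter locus, the age of the adults, the number and sex of the mice and any sort gate are not stated in the labels. Whether plates of 1 stage came from separate animals is not stated either, so p-values measure the spread between plates, which may be technical.

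Tachykinins are short neuropeptides cut from larger precursors and packed into dense-core granules. Tac1 encodes substance P and neurokinin A, and mouse Tac2 encodes neurokinin B. Substance P binds best to the receptor encoded by Tacr1, and neurokinin B to the one encoded by Tacr3; both receptors act through Gq proteins and phospholipase C. In the adult medial habenula, substance P neurons lie dorsally and cholinergic neurons ventrally, and both project to the interpeduncular nucleus.

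The peptides have closely similar 5-residue ends that the receptors recognise, and the bases coding for them are shown so that the 3 peptides can be compared there. Each stretch is the coding strand from GENCODE M21, with the last 15 bases, which code for that end, in capitals.
substance P: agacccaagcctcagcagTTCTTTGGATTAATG
neurokinin A: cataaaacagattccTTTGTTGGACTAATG
neurokinin B: gacatgcacgacttcTTTGTGGGACTTATG
The neurokinin A stretch matched substance P at 12 of those 15 bases and the neurokinin B stretch at 10. Substance P and neurokinin A were both read from transcript Tac1-205, whose coding sequence has 393 bases, and neurokinin B from Tac2-201, with 351 coding bases. Of the 4 coding Tac1 transcripts in that annotation, Tac1-205 and Tac1-203 code for 2 such ends and Tac1-201 and Tac1-204 for 1, and the deposited counts do not separate them.

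Tac1 (ENSMUSG00000061762) lies at chr6:7554879-7565834, Tac2 (ENSMUSG00000025400) at chr10:127724478-127731768, Tacr1 (ENSMUSG00000030043) at chr6:82402334-82560104 and Tacr3 (ENSMUSG00000028172) at chr3:134829007-134934579, all on the plus strand of GRCm38. None of the 4 overlaps another annotated gene. Chat, used below as the marker of cholinergic cells, overlaps Slc18a3 on its own strand and Gm2990 on the other, so its counts are uncertain.

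A well was kept with at least 1000 counts and 500 genes and at most 20% mitochondrial counts, which left 3729 of 5756 wells in the series and 1082 of 1920 wells of the left, right and both-side plates. Levels are CPM, counts scaled to a common library total, over all kept wells of a plate, with totals from 758697 (adult plate 1) to 7760372 (P7 plate 1) counts. A plate level mixes cell classes, so fewer cells of a type and less RNA per cell cannot be told apart in it. Some plates stood apart. Left plate 2 kept 54 of its 384 wells. E18 plate 1 had Pou4f1 in 28.1% of wells against 85.5% on E18 plate 2, and 24.7% of its wells fell in clusters named nonneuronal from markers. Adult plate 1 kept 56 wells, with a median mitochondrial share of 11.9%, and E13 plate 2 had Pou4f1 in 51.1% of wells against 71.2% on E13 plate 1. On adult plates 1 and 2, 41.1% and 31.0% of wells fell in clusters named nonneuronal, against 5.21% and 4.42% on the P7 plates. Pou4f1 was in 37.5% and 52.6% of adult wells, against 90.8% and 88.1% at P7. The part of this mixture in adult levels was not tested. Sequencing runs held 5 plates, and which plates ran together is not given, so run and stage cannot be told apart.

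Tac1 was the abundant precursor of embryonic plates and was found at every stage. From E11 to E15 a Tac1 UMI was present in 41.4% to 66.9% of the kept wells of a plate. Plates of E11 stood at 181 and 155 CPM, that of E12 at 225, those of E13 at 508 and 292, and those of E15 at 295 and 294. The E13 plates were thus the highest on average, and the range of E13 contained both E15 plates. At E18 the plates split, with 2.39 CPM on plate 1 and 91.97 CPM on plate 2. The low plate is the one with few Pou4f1 wells, and the part of that mixture in the Tac1 difference was not tested.

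After birth Tac1 stood at 52.5 and 24.7 CPM on P4 plates, 149.7 and 166 CPM on P7 plates, and 199.5 and 81.6 CPM on adult plates. Both P7 plates were above both P4 plates, and the adult range contained both P7 values. The share of wells with a Tac1 UMI followed the same order, 20.6% and 15.5% for P4, 46.3% and 43.5% for P7, and 48.2% and 23.4% for the adult. Ranked by mean level, the stages ran E13, E15, E12, E11, P7, adult, E18 and P4. Neighbours in this order overlapped, except that both E15 plates lay above E12 and E12 above both E11 plates.

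No stage contrast of Tac1 passed at an adjusted p of 0.05 in edgeR's quasi-likelihood test, fitted over 17453 genes and adjusted over all of them (Benjamini-Hochberg). For edgeR differences, ± gives an approximate SE, the size of the difference divided by the square root of its F statistic. From E11 to E13 the log2 difference was 1.12 ± 0.91 (adjusted p = 0.549), and 0.52 to 1.45 over fits that left out 1 plate. From E13 to E15 it was -0.33 ± 0.90 (adjusted p = 0.923). From E15 to E18 it was -2.77 ± 1.00 (adjusted p = 0.209), with both E18 plates below both E15 plates. That value rested on the E18 plates: without E18 plate 2 it was -7.16 (adjusted p = 7.86e-04), and without E18 plate 1 it was -1.78 (adjusted p = 0.282). From E18 to P4 the difference was -0.08 ± 0.96 (adjusted p = 0.962). It became 4.35 without E18 plate 2 (adjusted p = 0.00254) and -1.14 without E18 plate 1 (adjusted p = 0.202), so the direction hung on which E18 plate was used.

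From P4 to P7 Tac1 differed by 2.02 ± 0.94 on the log2 scale, with an unadjusted p of 0.0542 and an adjusted p of 1 in the edgeR fit over all plates. A fit to the 4 plates of P4 and P7 alone gave 2.03 with an adjusted p of 0.00406. Of 12 alternative fits 2 passed, this fit among them, so the call depended on the fit used. From P7 to the adult the difference was -0.32 ± 0.92 (adjusted p = 0.887). Over embryonic against postnatal stages it was -0.80 ± 0.51 (adjusted p = 0.21). That last contrast changed to 0.31 without E18 plate 2 (adjusted p = 0.409), to -1.14 without E18 plate 1 (adjusted p = 0.00225), and to -0.95 over wells with a Pou4f1 UMI (adjusted p = 0.0471).

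Tac2 was close to absent before E18 and higher at each later stage. Plates of E11 had 0.77 and 0.20 CPM, that of E12 had 0.63, both of E13 had 0, and those of E15 had 0 and 1.19. These values rest on 0 to 4 UMIs per plate. On the E13 plates, 3 UMIs would have been 1.70 and 1.59 CPM, so lower levels were not detectable at this depth. At E18 Tac2 stood at 2.00 CPM on plate 1, where all 5 UMIs came from 1 well, and at 12.8 CPM on plate 2. From E15 to E18 the log2 difference was 2.94 ± 1.10 (edgeR, adjusted p = 0.225, and DESeq2, adjusted p = 0.0413), on few UMIs. It ran from 1.12 to 7.51 over fits that left out 1 plate.

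Tac2 reached 231 and 117 CPM on P4 plates, 729.6 and 659 CPM on P7 plates and 1896 and 2132 CPM on adult plates. No postnatal plate overlapped the plates of another stage. From E18 to P4 the log2 difference was 4.93 ± 0.73 with an adjusted p of 0.00258 (edgeR). In that contrast 19.6% of all 17453 genes tested were called, 9.2% higher and 10.4% lower at P4. The Tac2 call was kept with each of the 4 plates left out in turn, at 3.88 to 6.78, and was lost when those 4 plates were fitted alone (4.82, adjusted p = 0.0649).

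The later steps had the same direction and did not pass in the main edgeR fit over all plates. From P4 to P7 Tac2 differed by 1.99 ± 0.57 (unadjusted p = 0.00585, adjusted p = 1), in a contrast that called 0.00573% of genes. From P7 to the adult it differed by 1.42 ± 0.56 (adjusted p = 0.187), where 3.58% of genes were called. In fits of only the plates compared, both passed, with adjusted p of 0.00372 and 0.0256. In each of these 2 steps 2 of 12 alternative fits passed, that fit among them. Across embryonic and postnatal stages Tac2 was higher after birth with an adjusted p of 3.48e-07, where 50.5% of genes were called; its fitted log2 difference of 10.22 depends on the prior count, because 3 embryonic plates were at 0. The mean of stage levels was 2.12 CPM before birth and 961 CPM after.

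**Figure D1:**
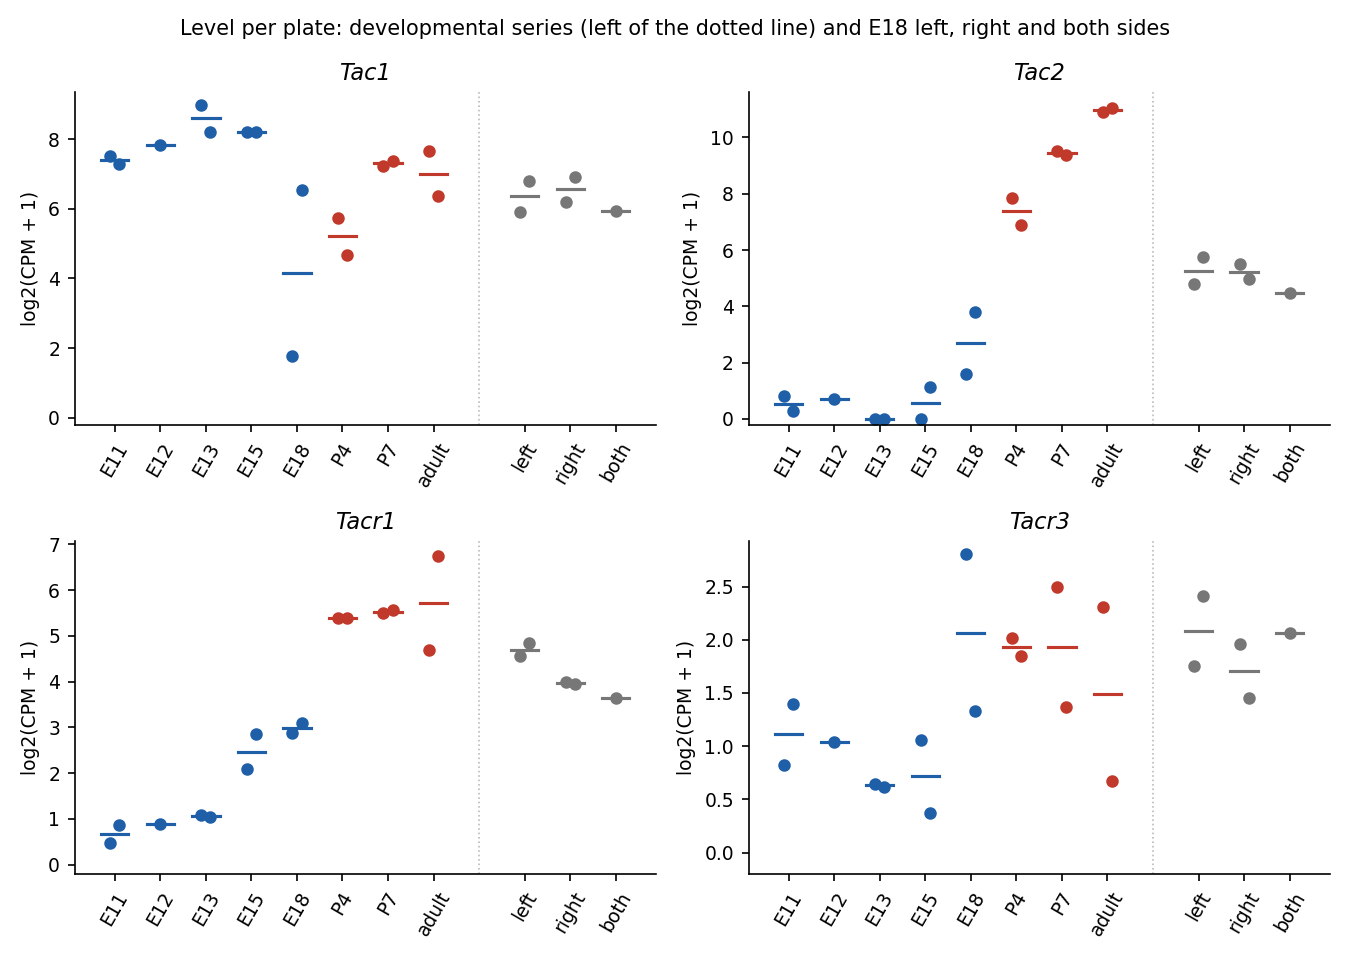
Level of each gene on every plate, as log2(CPM + 1), with 1 point per plate and a bar at the group mean; embryonic plates of the series are blue, postnatal plates red, and the E18 plates of left, right and both sides grey. Tac2 climbs from 0 at E13 to 1896 and 2132 CPM in the adult, Tacr1 lies higher on postnatal than on embryonic plates of the series, Tac1 is high from E11 to E15 and split between the E18 plates, and Tacr3 stays at or under 5.99 CPM.

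Detection of Tac2 in single wells has to be read against wells that should lack it. Wells in clusters named nonneuronal (microglia-, vascular-, ependymal or choroid plexus-, astrocyte- and oligodendrocyte-like) held Tac2 in 33.3% of 27 P4 wells, 70% of 30 P7 wells and 93.0% of 129 adult wells, at median depths of 13152, 9008 and 4549 counts. The other kept wells held it in 62.7% of P4, 91.0% of P7 and 98.9% of adult wells, at 20705.5, 21518 and 16826 counts. Adult detection shares therefore stood near this background. Pooled levels were 29.2 against 175 CPM for P4, 162 against 711 CPM for P7, and 687 against 2304 CPM for the adult. The other wells include unnamed clusters whose leading genes are not neuronal. On adult plate 2, 38 wells led by Gpr17 and Pdgfra had 591 CPM of Tac2 (97.4% of wells) and 12 wells led by Acta2 and Rgs5 had 544 CPM (91.7%). The named nonneuronal wells of that plate had 591 CPM. On P7 plate 1, 11 wells led by Col1a1 and Dcn had 124 CPM (72.7%). In wells with Tac2, the median was 3 UMIs in adult nonneuronal clusters and 28.5 UMIs in the other adult wells. Tac1 was in 10.9% of adult nonneuronal wells and in 34.6% of the others, and in 34.2% of the 38 wells led by Gpr17 and Pdgfra (61.4 CPM), so its adult share did not set the others apart from those wells.

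Wells with both Tac1 and Tac2 were few before birth. They numbered 3 of 654 at E11, 1 of 291 at E12, 0 of 290 at E13 and 0 of 490 at E15; counts of 0 allow shares of up to 1.03% and 0.612%. At E18 there were 7 of 377, all on plate 2, and that plate held 9 wells with Tac2 in all. The count was 72 of 609 P4 wells (11.8%), 263 of 620 P7 wells (42.4%) and 106 of 398 adult wells (26.6%). By plate the shares were 15.0% and 9.01% for P4, 45.4% and 39.1% for P7, and 48.2% and 23.1% for the adult, so the P4 and P7 plates did not overlap and the adult plates spanned P7.

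Most P7 and adult wells held Tac2, so at those stages the shares track the share with Tac1. Tac1 without Tac2 was seen in 16 wells at P7 and in 1 in the adult. Among Tac1-positive wells, 66.1% of those from P4, 94.3% from P7 and 99.1% from the adult held Tac2, against 60.4%, 86.5% and 96.2% of Tac1-negative wells. With at least 5 UMIs required of each, both precursors were found in 14 P4 wells, 97 P7 wells and 31 adult wells. At that cut 82.2% of Tac1 wells held Tac2 at P7, against 48.2% of the rest. With at least 10 UMIs of each there were 5, 51 and 17 wells. Neither cut is adjusted for depth. Adult nonneuronal wells with Tac2 had a median of 3 UMIs. Their clusters had a median depth of 4549 counts, against 16826 in the other adult wells. Neither cut is therefore known to clear the adult background.

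In the left, right and both-side plates at E18 co-detection was 25 of 337 wells (7.42%) on the left, 40 of 412 (9.71%) on the right and 20 of 333 (6.01%) on the plate of both sides. Tac2 was in 30.1% of Tac1-positive and 15.4% of Tac1-negative wells on the left, in 31.2% and 15.8% on the right, and in 34.5% and 6.18% on the plate of both sides. Thus on all 5 of these plates, as on E18 plate 2 of the series (17.5% against 2.86%), Tac2 was more often found beside Tac1. On E18 plate 1, where 1 well held Tac2, it was in 0% of 5 Tac1-positive and 0.382% of Tac1-negative wells. These shares are not adjusted for depth.

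**Figure D2:**
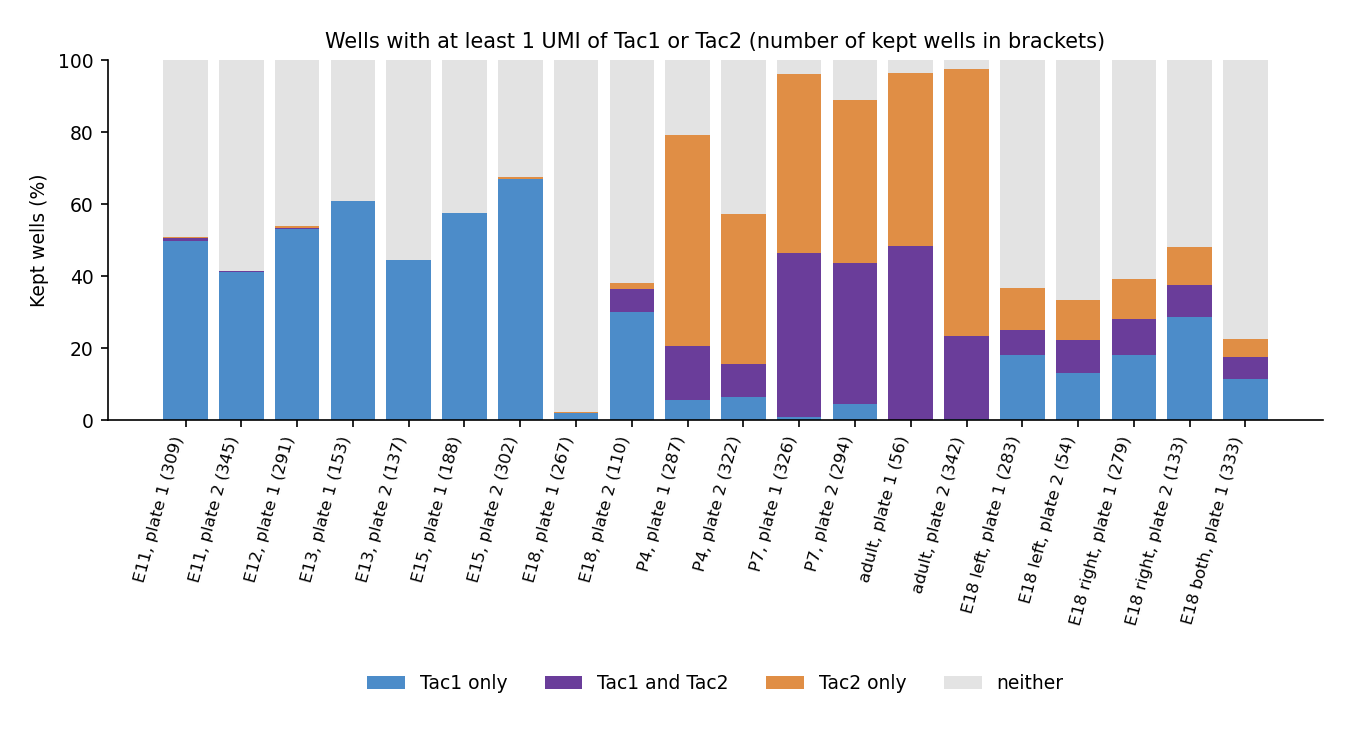
Share of kept wells (percent) with at least 1 UMI of Tac1 only, of both precursors, of Tac2 only or of neither, 1 bar per plate with its number of kept wells. Blue fills the embryonic bars up to 66.9% at E15, purple (both) first exceeds 5% on E18 plate 2 (6.36%), and orange and purple fill the P7 and adult bars.

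To compare wells at equal depth, each was thinned to 2000 UMIs and the share of a partner gene in positive minus negative wells was taken within each of the 6 postnatal plates. Wells under that depth were left out. Tac2 was more often found in Tac1-positive wells, 59.99% against 51.0% on average, a difference of 8.98 ± 5.85 percentage points (SD, n = 6), higher on 6 of 6 plates. The difference was 4.98 and 3.75 points on the P4 plates, 18.3 and 12.7 on the P7 plates, and 10.3 and 3.89 on the adult plates. An exact two-sided sign-flip permutation test gave p = 0.03125, the smallest that 6 plates allow, and p = 0.0521 after adjustment over the 5 pairs tested.

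Chat, the acetylcholine-synthesising enzyme, went the other way with Tac1. It was in 2.92% of Tac1-positive and 10.9% of Tac1-negative wells at that depth, a difference of -7.96 ± 1.05 points, lower on 6 of 6 plates (exact permutation p = 0.03125, adjusted p = 0.0521). Between Tac2-positive and Tac2-negative wells Chat differed by 2.28 ± 3.27 points, higher on 5 of 6 plates (exact permutation p = 0.188, adjusted p = 0.234). Gpr151, an orphan receptor of habenular neurons, was higher in Tac2-positive wells by 13.2 ± 7.81 points on 6 of 6 plates (exact permutation p = 0.03125, adjusted p = 0.0521). Between Tac1-positive and Tac1-negative wells it differed by 8.36 ± 13.2 points, higher on 3 of 6 plates (exact permutation p = 0.25, adjusted p = 0.25); without P4 plate 2, where it was 33.1 points, the mean was 3.41. None of the 5 pairs passed 0.05 after adjustment. Pairs at 0.03125, the smallest p that 6 plates allow, were adjusted to 0.0521 and could pass only if more pairs had reached it. Restricted to wells outside the named nonneuronal and progenitor clusters, the Tac1 and Tac2 difference was 6.80 points, the Tac1 and Chat difference -9.71 and the Tac2 and Gpr151 difference 13.0. On adult plate 1, the main shares in Tac2-negative wells rest on 5.23 expected wells.

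**Figure D3:**
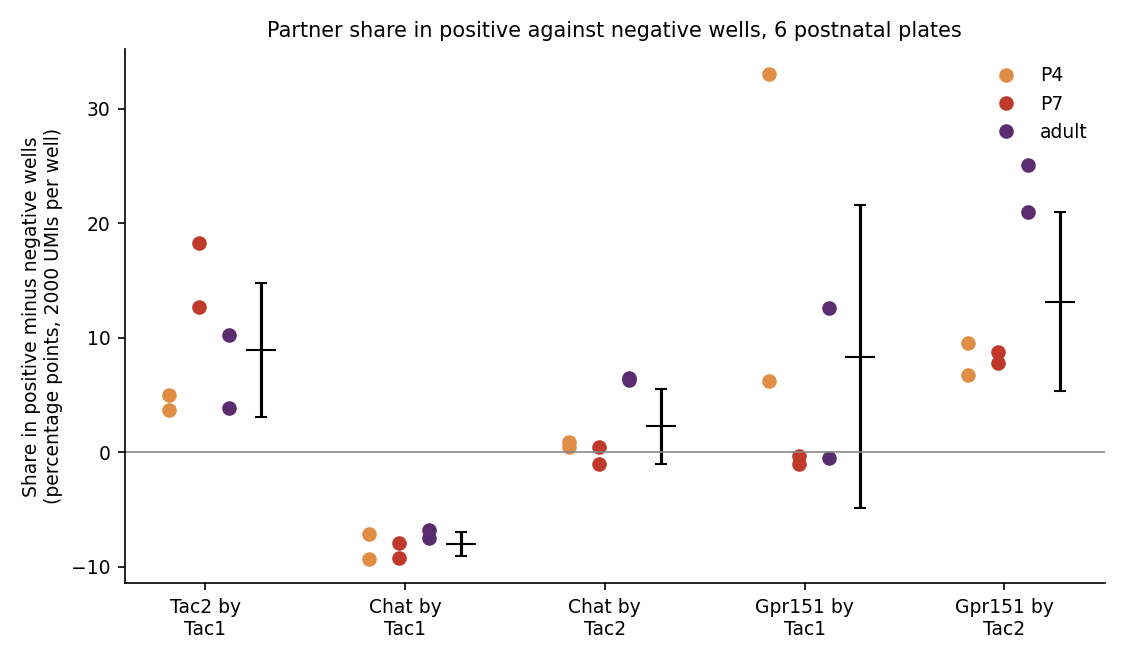
Share of wells with a partner gene in positive minus negative wells, in percentage points at 2000 UMIs per well, for the 6 postnatal plates (P4 orange, P7 red, adult purple) with the mean and SD in black. All 6 points lie above 0 for Tac2 by Tac1 and for Gpr151 by Tac2, and all 6 lie below 0 for Chat by Tac1.

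Tacr1, the substance P receptor, was higher after birth within the series. The E11 plates had 0.39 and 0.82 CPM, the E12 plate 0.84, the E13 plates 1.14 and 1.06, the E15 plates 3.26 and 6.24 and the E18 plates 6.38 and 7.54. P4 plates had 40.9 and 41.0 CPM, P7 plates 44.2 and 46.3, and adult plates 25.1 and 107. Within the series the lowest postnatal plate, adult plate 1, was thus above the highest embryonic plate. The C57BL/6 plates at E18 had 11.5 to 27.6 CPM, and the highest of them, left plate 2, was above adult plate 1. Left plate 2 kept 54 wells and adult plate 1 kept 56. The E11, E12 and E13 values rest on 2 to 4 UMIs per plate, with overlapping counting intervals (0.0468 to 1.40 CPM on E11 plate 1, 0.138 to 4.10 CPM on E13 plate 1), so no order is read among them. From E13 on, the means lay in stage order, and P7 and the adult were the neighbours with overlapping plates.

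From E18 to P4 Tacr1 was higher by 2.80 ± 0.57 on the log2 scale (edgeR, adjusted p = 0.00805). The call was lost narrowly without E18 plate 1 (2.56, adjusted p = 0.0555) and without P4 plate 2 (2.79, adjusted p = 0.0521). From E13 to E15 the difference was 2.29 ± 0.90 (adjusted p = 0.324), in a contrast with 0.0917% of genes called, and from E15 to E18 it was 0.31 ± 0.65 (adjusted p = 0.842), with 0.195% called. From P4 to P7 it was 0.13 ± 0.46 (adjusted p = 1). From P7 to the adult it was 0.52 ± 0.46 (adjusted p = 0.572), and it turned to -0.90 without adult plate 2. Embryonic against postnatal stages differed by 4.61 ± 0.33 (adjusted p = 1.50e-06), one of the 25.7% of genes called higher. Of the 4 genes, Tac2 and Tacr1 were thus called higher in the contrasts from E18 to P4 and from embryonic to postnatal stages, and no gene of the 4 was called in the other 6 contrasts; from E11 to E13, 1.45% of all genes were called.

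Wells with Tacr1 made up 39.7% and 37.6% on P4 plates, 43.9% and 36.4% on P7 plates, and 14.3% and 38.3% on adult plates, against 0.647% to 5.45% on the embryonic plates of the series. On C57BL/6 plates at E18 they made up 23.7% and 27.8% (left), 19.7% and 17.3% (right) and 12.0% (both sides). These shares are not adjusted for depth. At 2000 UMIs per well they were 0.98% and 1.01% on E18 plates of the series and 6.43% and 6.46% on P4 plates. The C57BL/6 plates then had 1.95% to 4.76%. In the adult, 4.65% of nonneuronal wells held it (8.25 CPM) against 49.4% of the others (109 CPM). Tac2-positive wells held Tacr1 more often than Tac2-negative ones at P7, at 43.0% and 16.1% unthinned. At 2000 UMIs per well the shares were 8.33% and 6.27%, and at P4 7.70% and 6.13%. In the adult they were 12.8% and 4.02%, with 5.23 and 60.9 expected Tac2-negative wells on adult plates 1 and 2 at that depth. Unthinned, 12 of 398 adult wells were Tac2-negative. Thinning lowers all shares, so the sizes of the gaps with and without it are not compared. Tac1-positive wells held Tacr1 in 5.23% at P7 at that depth and Tac1-negative wells in 7.87%. At P4 the thinned shares were 3.63% and 6.60%, lower with Tac1 on both plates of either stage. The adult plates went opposite ways, with 1.91% and 6.20% on plate 1 and 12.4% and 11.9% on plate 2.

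Tacr3, the neurokinin B receptor, was sparse at every stage. Its plate level ranged from 0.30 to 5.99 CPM over the 15 plates of the series, on 1 to 36 UMIs, and stages next to each other in the order of mean level overlapped. In order of age, the E12 plate lay above both E13 plates and both E18 plates above both E15 plates, on 1 to 15 UMIs. Its highest plate was E18 plate 1, the embryonic plate with the most nonneuronal wells; the part of these wells in that level was not tested. No Tacr3 contrast passed the edgeR test. From E15 to E18 the log2 difference was 2.49 ± 1.11 (adjusted p = 0.282), and 1.19 to 3.32 over fits that left out 1 plate. From embryonic to postnatal stages it was 1.13 ± 0.58 (adjusted p = 0.125). Without adult plate 2 the latter was 1.66 (adjusted p = 0.0367). By cluster it was at 133 CPM, in 6 of 12 wells, in a P7 cluster led by the fibroblast genes Col1a1 and Dcn, of which 11 wells were on P7 plate 1; 8 of those 11 also held Tac2. It was at 29.6 CPM, in 27.3% of 22 wells, in ependymal or choroid plexus-like wells of E18 plate 1. On the left, right and both-side plates it was seen in an unnamed cluster led by Gm37746, at 15.9 CPM on left plate 1 (11.8% of 34 wells) and 13.3 CPM on right plate 1 (20% of 15 wells), and in a medial habenula-like cluster, led by Rasgrp1, at 6.54 CPM on left plate 1, 9.33 and 3.01 CPM on the right plates and 17.3 CPM on the plate of both sides, in 12% to 15.2% of its wells. Over all kept wells, 2 of the 12 left wells with Tacr3, 3 of the 18 right ones and 1 of the 11 from both sides also held Tac2. The plate means of the Tac2 share over all wells there were 19.5%, 20.3% and 11.1%. In the series, 81.0% of P4, 85.7% of P7 and 100% of adult Tacr3 wells held Tac2, the last on 6 wells. Over all wells of those stages the plate means were 62.1%, 89.7% and 96.8%. None of these shares is adjusted for depth.

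The remaining family members were hardly seen. Tac4, the precursor of hemokinin, had 2 UMIs in the series and 1 in the left and right set, and Tacr2, the neurokinin A receptor, had 1 UMI in the latter set. Both lay under 3 UMIs, so neither was tested.

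Left and right habenula at E18 were compared on 2 plates each. Left plate 2 kept 54 wells, so its levels rest on few cells. For each gene, the 10 wells with the most UMIs held 99.0% (Tac1), 99.0% (Tac2) and 90.2% (Tacr1) of that plate's UMIs. A single well held 20 of its 51 Tacr1 UMIs. Tac1 was at 59.2 and 110.1 CPM on the left and 72.3 and 119 on the right, and Tac2 at 26.5 and 53.1 on the left and 44.1 and 30.04 on the right, with overlapping sides. Tacr1 was at 22.6 and 27.6 CPM on the left and 15.0 and 14.4 on the right, without overlap. Its right minus left log2 difference was -0.77 ± 0.29 (edgeR, unadjusted p = 0.0219, adjusted p = 1.00), and -0.91 to -0.62 over fits that left out 1 plate. In this contrast 0% of 15489 genes were called by edgeR, 182 genes had an unadjusted p under 0.05, and DESeq2 called 1. With 2 plates per side, an exact permutation test cannot give a p under 0.333, so sides often separate by chance. The lack of overlap for Tacr1 is thus not read as a side difference. Tacr3 was at 2.36 and 4.33 CPM on the left and 2.90 and 1.73 on the right. The plate of both sides held Tac1 at 60.6, Tac2 at 21.4, Tacr1 at 11.5 and Tacr3 at 3.19 CPM. Of the 35 erythroid-like wells of the set, 34 were on the left plates, with 0 UMIs of Tac1 and Tacr3 and 1 each of Tac2 and Tacr1. These plates came from another mouse line than the series and are not tested against it.

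Which cells carried the peptides was described by clustering the wells with the 4 genes left out of the variable genes. At P7, Tac1 was highest in 112 wells led by Pde11a, Gad1 and Cck, at 564 and 481 CPM on the P7 plates and in 94.8% and 88.9% of wells. Tac2 was also high there, at 1190 and 852 CPM, while Chat stood at 1.99 and 2.33 CPM. In a medial habenula-like cluster of 136 wells at P7, Tac1 was at 8.64 and 9.56 CPM, Tac2 at 335 and 405 and Chat at 99.4 and 103. A further medial habenula-like cluster, led by Tpbgl and Cpne9, had Tac1 at 11.4 and 5.45 CPM and Tac2 at 747 and 673 CPM. At P7 Tac1 thus stayed at or under 11.4 CPM in both medial habenula-like clusters, whereas Tac2 was at or above 335 CPM in all 3 of these clusters. The 8 markers behind that name include Chat, so low Tac1 is not read as a trait of the whole medial habenula. Some unnamed clusters also passed many of them. Those led by L3mbtl4 and Vgf and by Col25a1 and Oprm1 passed 4, and the mainly adult one led by Tac2 passed 7.

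Wells led by Col25a1, Oprm1 and Gpr151 lay between these in their Tac1 level. They had Tac1 at 114 and 185 CPM, Tac2 at 899 and 835 and Tacr1 at 78.1 and 82.8 at P7. Tacr1 was also high in the Tpbgl-led cluster, at 67.2 and 63.4 CPM, and low in the Pde11a-led one, at 18.0 and 16.3. The receptor for substance P was therefore lowest, among these clusters, in the wells with the most Tac1, with the medial habenula-like cluster of 136 wells next at 19.8 and 25.5. At P4 the Pde11a-led cluster held 21 wells, with Tac1 at 397 CPM in 90.5% of them, against 112 wells at P7. In the adult a cluster of 190 wells, led by Tac2 itself, Gpr151, Nfam1 and Faim2 and also holding the heat-shock genes Hspa1a and Hspa1b among its leading genes, had Tac1 at 96.4, Tac2 at 2440 and Tacr1 at 125 CPM; 171 of its wells were from adult plate 2.

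**Figure D4:**
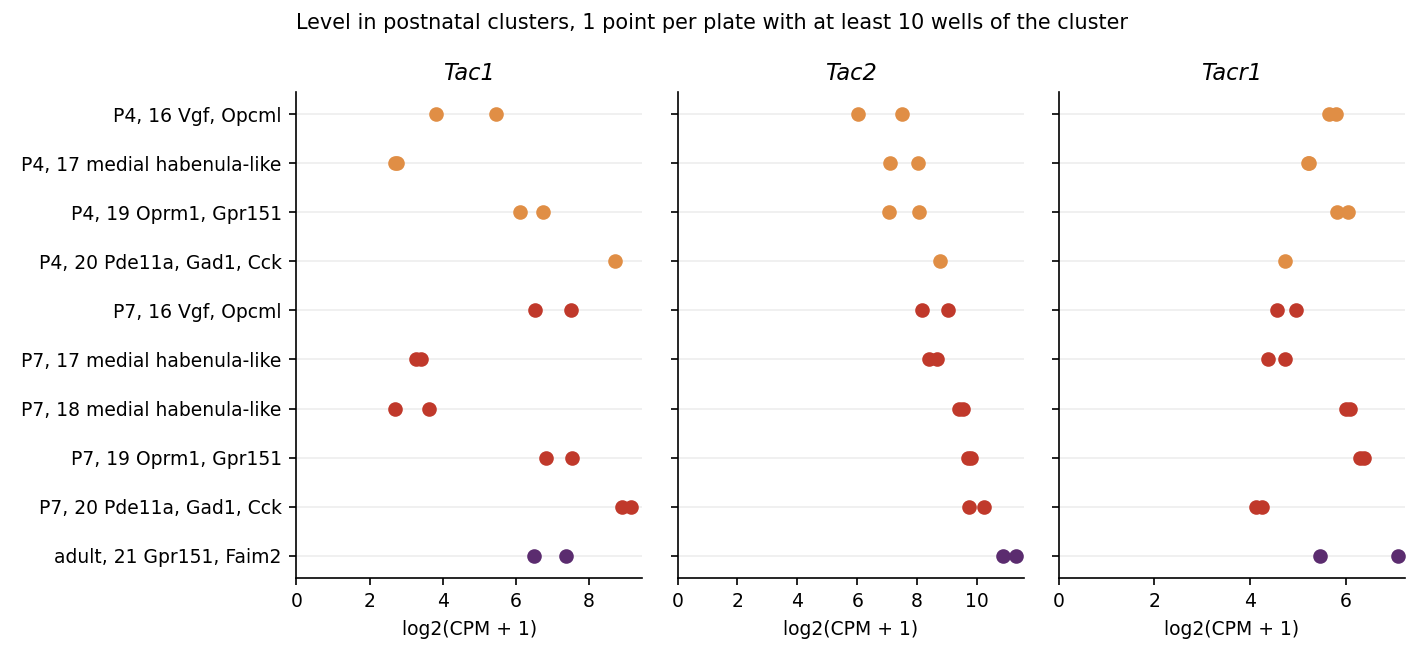
Level as log2(CPM + 1) of Tac1, Tac2 and Tacr1 in postnatal clusters 16 to 21, given with leading genes (all other clusters, the named nonneuronal ones among them, are not drawn), 1 point per plate with at least 10 wells of the cluster (P4 orange, P7 red, adult purple). The Pde11a-led cluster has the highest Tac1 (481 and 564 CPM at P7) and the lowest Tacr1 of the P7 clusters plotted (16.3 and 18.0 CPM), and Tac2 is found in all clusters plotted.

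Before birth Tac1 was found in several clusters. At E11 it was at 263 and 230 CPM on the 2 plates in wells led by the transcription factor gene Onecut3 and by Crabp1, and at 89.1 and 57.5 CPM in wells led by Tfap2b. At E15, wells led by Nrxn3, Lgals7 and Cbln2 had 460 and 315 CPM, and the same cluster had 115 CPM on E18 plate 2. Progenitor-like wells had 18.6 and 0 CPM on the E11 plates and 25.3 and 43.3 CPM on the E13 plates. On E13 plate 2, 22 wells led by Acta2 and Rgs5, genes of contractile vessel-wall cells, had 36.1 CPM (31.8% of wells), so these low levels were not set apart from such wells. An intermediate progenitor-like cluster led by Gbx2, a gene of thalamic neurons, was at 753 CPM on E13 plate 2 and at 48.8 CPM on E13 plate 1.

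At E18 the left and right plates held a like cluster. Wells led by Kcng4 and Pde11a, with Tac1 itself among their leading genes, had Tac1 at 295 CPM on left plate 1 and at 292 and 459 CPM on the right plates, with Tac2 at 89.2, 110.2 and 101 CPM and Tacr1 at 0, 0 and 1.53 CPM. In a medial habenula-like cluster led by Rasgrp1, Tac1 was at 11.8, 4.66 and 22.6 CPM on those plates and Tacr1 at 30.1, 27.98 and 19.5 CPM. On left plate 1 Tacr1 was higher still in clusters led by Gpr151 (58.4 CPM), Gm37746 (58.3 CPM) and Nrgn (35.8 CPM). In the remaining clusters with at least 10 wells on that plate it was at or under 18.3 CPM. Clusters were defined on these same wells, so these levels are descriptions with no test.

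The genes most like each member were named by correlation. Over 1229 wells of the 4 P4 and P7 plates, the mean within-plate Pearson r with Tac1, among 11037 genes, was highest for Wif1, a secreted Wnt inhibitor (0.59), Calb2, which encodes calretinin (0.55), C130073E24Rik (0.53), Kcng4, a potassium channel subunit (0.52), and Gm45455 (0.52). It was lowest for Nrgn, a calmodulin-binding protein gene (-0.46), Lmo3 (-0.43) and Plch2, a phospholipase C gene (-0.38). For Tac2 it was weaker and reached 0.35 for Gfra1, a co-receptor of GDNF, 0.31 for Igsf5, 0.30 for Pcp4 and 0.30 for Nptx2. Wells of a plate share a library, and depth enters such values.

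Over the 15 plates of the series, among 20324 genes and on the log2(CPM + 1) scale, Tac2 was most like Rap1gap (r = 0.99), Gm5741 (0.99), Asb2 (0.98), Rspo4 (0.98) and Cndp1 (0.98). Tacr1 was most like Tmem56 (0.98), Nppa (0.98), Lysmd2 (0.97), Zbtb38 (0.97) and Ndrg3 (0.97). Tac1 was most like C230031I18Rik (0.88), Lin28b, which holds back maturation of let-7 microRNAs (0.83), Tmem163 (0.82), Trp53i11 (0.81) and Gm47204 (0.81). Tacr3 was most like Stk11ip (0.86), Nrbp2, Mctp1, 1700008O03Rik and Zfp879 (0.81). These genes were picked as the best of all, plates of 1 stage share their stage, and no p is given.

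The machinery that makes, stores and removes such peptides was read from the same edgeR fit. Of 12 genes of precursor processing and granules, 7 rose from E18 to P4 and 0 fell, where 9.2% of all genes tested rose and 10.4% fell; the median log2 difference was 1.03 against -0.07 over all genes. Among them were Pcsk1, a convertase that cuts precursors (3.41 ± 0.49, adjusted p = 0.00199), and Chgb, a granin (2.68 ± 0.59, adjusted p = 0.0117). Of 4 peptidases tested, 2 rose; Mme encodes neprilysin, which degrades substance P, and went from 3.92 ± 2.35 to 47.0 ± 3.11 CPM (SD, n = 2), a log2 difference of 3.71 ± 0.39 (edgeR, adjusted p = 6.42e-04). Of 8 genes of receptor signalling tested, 0 rose and 1 fell: Plcb1, a phospholipase C, at -3.09 ± 0.60 (edgeR, adjusted p = 0.00686). It was at 352 ± 356 CPM at E18, so its 2 E18 plates differed widely.

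Over embryonic against postnatal stages, 10 of the 12 processing and granule genes rose and 1 fell, and 4 of 4 peptidases rose, where 25.7% of all genes rose and 24.8% fell. The largest rises were those of Pcsk1 (5.45 ± 0.27), Scg2, a granin (5.04 ± 0.37), and Mme (4.39 ± 0.21). Of the signalling genes 1 rose and 3 fell, and the largest falls over these lists were those of Cadps, a granule priming factor (-1.60 ± 0.25), Plcb3 (-1.58 ± 0.49) and Plcb1 (-0.90 ± 0.31). From E11 to E13, E13 to E15, E15 to E18, P4 to P7, P7 to the adult and left to right, 0 genes of these 3 lists were called; over all genes the shares called were 1.45%, 0.0917%, 0.195%, 0.00573%, 3.58% and 0%, so nothing is read from these counts.

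Other neuropeptide precursors were compared as a list of 16, of which 9 could be tested in the series. From E18 to P4, where 9.2% of all genes rose and 10.4% fell, 3 rose and 0 fell: Cartpt (4.32 ± 0.71), Cck (3.72 ± 0.57) and Adcyap1 (1.86 ± 0.57). Over embryonic against postnatal stages, where 25.7% of all genes rose and 24.8% fell, 4 rose and 1 fell, the largest being Cck (7.505 ± 0.29), Cartpt (3.43 ± 0.35) and Sst (2.02 ± 0.73), and the fall being that of Pnoc (-4.06 ± 0.91). Cck, one of the leading genes of the Pde11a-led cluster with the most Tac1, was the 1 gene of 17453 called from P4 to P7, at 6.23 ± 0.78 and 80.6 ± 8.94 CPM (edgeR, log2 difference 3.67 ± 0.32, adjusted p = 0.00554). The count in that contrast was 0 with each of the 4 plates left out in turn.

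The deposited tables split transcripts into spliced and unspliced. Over all 20 plates, 102 of 10750 Tac1 UMIs were unspliced (0.949%), 2481 of 24297 Tac2 UMIs (10.2%), 1041 of 2132 Tacr1 UMIs (48.8%) and 62 of 190 Tacr3 UMIs (32.6%). For Tacr1 the share was 50.4% (P4), 49.5% (P7) and 41.1% (adult). On the embryonic plates of the series it was 100% of 6 UMIs at E11, 100% of 4 at E12 and 75% of 4 at E13. It was 59.3% of 27 at E15 and 80.8% of 26 at E18. The left, right and both-side plates had 51.4%, 52.6% and 53.9%. For Tacr3 it ranged from 14.3% to 100% over the groups, on 2 to 45 UMIs each, and no order is read from it. For Tac2 the unspliced share was 6.36% of P4 UMIs (exact 95% interval 5.36% to 7.48%), 6.88% of P7 UMIs (6.38% to 7.41%) and 13.3% of adult UMIs (12.7% to 13.9%). Before birth it was 22.7% of 22 UMIs on the E18 plates, 10.2% of 255 on the left, 11.2% of 347 on the right and 21.3% of 141 on the plates of both sides. Tac1 had 1.12% at E11 and 1.07% in the adult. Intervals are Clopper-Pearson and cover counting error only. Tacr1 levels in CPM thus include many unspliced molecules.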

How the data were processed

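Cel-seq2 libraries of mouse habenula were counted per well, and the plate was the replicate. The authors deposited total, spliced and unspliced tables whose values are expected counts, UMI counts corrected for collisions among 4096 possible UMIs, as found from the values; inverting that correction gave whole UMIs for 100% of values, against 46.1% and 43.8% as deposited in the developmental and the left and right total tables (tolerance 1e-06). The planned test assumed whole numbers, so deposited values were summed per plate over kept wells and rounded. Reads were aligned with STAR 2.5.3a to mm10 after Trim Galore, per the submitters' processing notes. The counting program and its strand setting are not stated in the labels. Spike-ins stayed out of library sizes. Members and gene lists were chosen with earlier results of these data known.

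Stage was a factor in 1 edgeR 4.0.16 quasi-likelihood fit (filterByExpr, TMM; R 4.3.3) over the 14 plates of stages with 2 plates, and side in a fit of 4 plates; all 4 members passed the filter. DESeq2 1.42.0, fits without a filter, with a replicate block, with recovered UMIs, over other wells and without each plate were alternatives. The edgeR step was tested on simulated data. Shares at equal depth are the exact expectation for 2000 UMIs per well. Clusters came from scanpy 1.11.5 (2000 variable genes without the members, 30 components, 15 neighbours, Leiden resolution 1). A cluster was named when 3 or more of a class's markers were 2-fold higher and seen in 20% of wells, and where a marker of that class and no more of any other stood among its top 10 genes; the last condition was set after seeing the data. No doublet caller was run. Named genes were the 4 members, Chat, Gpr151 and Pou4f1, the 5 genes most like each member (for Tac1 and Tac2 also the 3 least like over wells, where r was at least 0.3 in size), and the 3 called list genes of largest change per direction and contrast. All plates carry the same well barcodes, so shared barcodes do not mark shared cells. One plate title gives the stage E1; its other label gives E18, which was used. P-values were adjusted by Benjamini-Hochberg at 0.05.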

Additional observations from a re-analysis of the deposited data

Results flagged for a closer look

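On 3 of the 13 groups of plates checked for an outlying plate, 1 plate stood apart. The rule flags about 1 in 20 groups by chance where all plates come from 1 population. These groups pool stages, so that rate does not apply to them. Tac2 on E18 plate 2, at 12.8 CPM, was far above the other 7 plates of E11, E13, E15 and E18 in the series, the group compared; the left, right and both-side plates at E18 had 21.4 to 53.1 CPM. Tacr1 on adult plate 2, at 107 CPM, was far above the other postnatal plates. Tacr3 on E18 plate 1, at 5.99 CPM, was above the other 7 plates of that same group.

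The Gpr151 share in Tac1-positive minus Tac1-negative wells was above 0 on both P4 plates (6.22 and 33.1 percentage points) and below 0 on both P7 plates (-0.997 and -0.329); the difference between the stages was not tested.

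Wells that were not kept also held tachykinin UMIs. On the developmental plates they held 136 UMIs of Tac1, 564 of Tac2 and 12 of Tacr1 among 516430 counts in 2027 wells. Of the Tac2 UMIs, 404 were on adult plate 1, at 5358 CPM in wells not kept against 1896 CPM in its kept wells; on adult plate 2 it was 1011 against 2132. On the left, right and both-side plates such wells held 13 UMIs of Tac1, 20 of Tac2 and 4 of Tacr1.

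Plates in no comparison carried signal above 3 UMIs. The E12 plate had Tac1 at 225 CPM, Tacr1 at 0.84 CPM and Tacr3 at 1.05 CPM. The plate of both sides had Tac1 at 60.6 CPM, Tac2 at 21.4 CPM, Tacr1 at 11.5 CPM and Tacr3 at 3.19 CPM.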

How the results depend on the processing

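Of 397 alternative values of the 4 genes in the 8 contrasts, 357 kept direction and side of the threshold, 16 kept direction and passed only in the alternative, 3 no longer passed and 21 changed sign, 1 of which then passed (Tac1 from E18 to P4 without E18 plate 2). Causes were not tested. Calls for Tac2 and Tacr1 from embryonic to postnatal stages passed in all 21 alternatives each. Counts of genes called moved by over 1.5 times as follows. With DESeq2 they were 951 (E11 to E13), 445 (E13 to E15), 671 (E15 to E18), 22 (P4 to P7), 1411 (P7 to adult) and 1 (left to right), with 143 higher and 302 lower from E13 to E15 (9 and 7 in edgeR) and 11 and 11 from P4 to P7 (1 and 0). Without a filter on low counts they were 1715, 1249, 1461, 136, 1766 and 37, and several member contrasts then passed, among them Tac1 from E15 to E18 (adjusted p = 2.20e-14). Over wells outside the named nonneuronal and progenitor clusters, chosen after seeing the data, they were 96, 3, 2, 2256 (E18 to P4) and 72 (P7 to adult). In fits of only the plates compared they were 0 (E13 to E15), 0 (E15 to E18), 528 (E18 to P4) and 541 (P4 to P7). Without each plate in turn, counts ran from 28 to 482 (E11 to E13), 1 to 81 (E13 to E15), 4 to 2100 (E15 to E18), 574 to 5695 (E18 to P4), 0 to 0 (P4 to P7), 27 to 1074 (P7 to adult) and 18 to 39 (left to right); a stage left with 1 plate was assumed to vary like the others.

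In the series, replicate numbers did not pair the plates in a steady way: the correlation of deviations ran from -0.334 to 0.221 over 21 pairs of stages and over 0.1 in 4. Between sides it was 0.228 on 1 pair, so pairing of left and right plates is not settled. The replicate block gave 4 calls from E13 to E15, 16 from E15 to E18 and 6 from left to right; the blocked Tac2 difference from E18 to P4 was 4.95 and that of Tacr1 2.78, both called. No call of the 4 genes changed with the block.

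Signs changed in results that were not called. Without a filter Tac1 from E18 to P4 was 0.0139. With the replicate block Tacr3 from P4 to P7 was -0.0403. Outside nonneuronal and progenitor clusters, Tacr1 from E11 to E13 was -0.11, Tac1 from E13 to E15 0.0643, Tacr3 from E13 to E15 -0.62 and Tacr3 from E18 to P4 0.0824. Without each plate in turn, Tac1 ran from -0.68 to 0.25 (E13 to E15), -1.14 to 4.35 (E18 to P4), -1.09 to 0.29 (P7 to adult), -1.14 to 0.31 (embryonic to postnatal) and -0.22 to 0.68 (left to right). Tac2 ran from -0.51 to 0.49 (left to right). Tacr1 ran from -0.13 to 0.95 (E15 to E18) and -0.90 to 1.10 (P7 to adult). Tacr3 ran from -0.60 to 1.04 (E13 to E15), -0.71 to 1.01 (E18 to P4), -0.87 to 0.71 (P4 to P7) and -2.49 to 0.27 (P7 to adult). Without E15 plate 2, Tac2 from E13 to E15 had 0 on all plates and gave no value.

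For the 5 pairs, 51 of 55 alternatives kept direction and side. Unthinned, Chat by Tac1 (-19.7 points), Chat by Tac2 (20.7), Gpr151 by Tac1 (15.2) and Gpr151 by Tac2 (29.9) passed at an adjusted p of 0.0391 in the exact permutation test. Wells then differ in depth, and the part of depth in these values was not tested. The Tac2-negative side of the 2 Tac2 pairs was then 16 wells on P7 plate 1 and 2 and 10 wells on adult plates 1 and 2. With 5 plates the smallest p is 0.0625. As means of plates, the share of wells with both precursors was 12.0% (P4), 42.3% (P7) and 35.7% (adult); at 2 UMIs it was 6.18% (P4) and 26.4% (P7), and at 5 UMIs 2.36%, 15.6% and 10.5%. It ran from 9.01% to 15.0%, 39.1% to 45.4% and 23.1% to 48.2% without either plate.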
